A study of Mus musculus with 69 samples.

Results

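Gene expression was compared directly between mouse macrophages edited at Atp6v1a and macrophages edited at Pik3c3, 13 days after editing. The comparison took 10 of the 69 libraries of the study, chosen by their titles: 5 with Atp6v1a as target and 5 with Pik3c3 as target. No Rosa26 library, the editing control of the study, entered it. The titles give the times in hours, while the study's design gives the same numbers as days, and days are used here. The 10 libraries of the same targets at day 4 served as the earlier time point.

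All cells were macrophages derived from the bone marrow of wild-type mice, grown in the growth factor M-CSF at 50 ng/mL, frozen, and thawed before editing. Marrow of 6 mice was pooled for each biological replicate, so a replicate is a pool and not an animal. Cas9 ribonucleoprotein, the Cas9 nuclease loaded with guide RNA, was delivered to the culture, and the labels name no clone, so the edited cells are taken as a pool of alleles. Each group is named here by its target, as Atp6v1a cells and Pik3c3 cells. The age and strain of the mice are not given in the sources used here.

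Atp6v1a encodes subunit A of the cytosolic V1 sector of the V-ATPase, the subunit that binds and hydrolyses ATP while the pump moves protons into lysosomes and other compartments. Pik3c3 encodes Vps34, the class III phosphoinositide 3-kinase, which works in complexes with Beclin 1 and Vps15 (Pik3r4) and makes the lipid PI3P on endosomes and forming autophagosomes. Both proteins act on the route by which macrophages break down what they take up: the pump sets the acidity that lysosomal hydrolases need, and PI3P recruits proteins that move cargo toward the lysosome.

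Libraries were 3' tag libraries with molecular identifiers. Day 13 totals ran from 3141336 to 4420703 estimated counts, with 17006 to 20010 genes detected. Levels are given as CPM, the estimated count scaled to a library total of 1000000. A library label, Regular or Low-input protocol, split the groups unevenly: libraries 1, 2 and 3 of the Atp6v1a cells and libraries 1, 3, 4 and 5 of the Pik3c3 cells were Low-input, and the other 3 were Regular. The protocols left a visible mark, with Malat1 at 104 to 204 CPM in the Low-input libraries and 1408 to 2292 CPM in the Regular ones, so protocol was a term of every day 13 test of single genes that used both protocols. Fits of the Regular libraries alone hold 2 Atp6v1a libraries and 1 Pik3c3 library and take their spread from the Atp6v1a pair, so a call made or lost there rests on 3 libraries. RNA integrity numbers in the labels were 9.5 to 9.8 in the Atp6v1a cells and 8.6 to 9.5 in the Pik3c3 cells, lowest in Pik3c3 replicate 4, without which the test made 1526 calls, and the part of RNA quality in the differences was not tested. With protocol left in, the first principal component (47.4% of the variance) split the protocols, with Regular libraries at 35.2 to 49.7 and Low-input ones at -26.0 to -10.95. The second (22.5%) then split the targets, with Atp6v1a cells at 6.36 to 36.1 and Pik3c3 cells at -22.3 to -13.5. Protocol was then removed in a model that kept the target difference, which favours a split by target. After this removal the first component (43.2% of the variance) separated the targets, with the Atp6v1a cells at -30.4 to -16.5 and the Pik3c3 cells at 14.5 to 24.7. The second (18.2%) set replicate 1 of the Atp6v1a cells (28.1) apart from the other 4 (-12.4 to -7.83), and also replicate 2 of the Pik3c3 cells (20.6). Without replicate 1 of the Atp6v1a cells the test made 2227 calls in place of 1949, and without replicate 1 of both targets it made 2261. All 10 defining macrophage markers were present in both groups, among them Csf1r, Adgre1, Cd68 and Spi1. Their summed level was lower in Atp6v1a cells, at 10640 ± 2427 CPM against 14590 ± 1650 CPM (SD, n = 5 each, exact permutation test, two-sided, adjusted p = 0.0423 over 8 marker lists). This permutation test has no protocol term, and the sum was 12280 against 15200 CPM in the Low-input libraries and 8182 against 12170 CPM in the Regular ones. Most of it was Lyz2, a lysozyme gene with a near-identical copy (mean 7720 against 10700 CPM), while Spi1 (221 against 225 CPM), Cd68 (850 against 861 CPM) and Cd14 (133 against 130 CPM) had close means. In bulk samples, fewer cells of a type and less RNA per cell cannot be told apart.

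The targeted genes were read first. Atp6v1a (ENSMUSG00000052459.14) stood at 862, 871, 826, 975 and 983 CPM in Atp6v1a libraries 1 to 5 and at 1421, 1581, 1334, 1509.5 and 1346 CPM in Pik3c3 libraries 1 to 5. Every Atp6v1a library was below every Pik3c3 library, and the log2 fold change, here always Atp6v1a over Pik3c3, was -0.78 ± 0.08 (SE; edgeR quasi-likelihood test, adjusted p = 6.32e-06). Pik3c3 (ENSMUSG00000033628.16) stood at 62.0, 89.1, 80.1, 59.7 and 72.4 CPM in the Atp6v1a cells and at 46.5, 47.1, 46.7, 41.7 and 43.6 CPM in the Pik3c3 cells. The groups did not overlap here either, with the Pik3c3 cells lower (log2 fold change 0.63 ± 0.11, adjusted p = 0.000693). In the Regular libraries alone, with 1 Pik3c3 library, the Pik3c3 difference was 0.39 with adjusted p = 0.119. Each target was thus lower in the cells edited at it, by 1.72-fold and 1.55-fold against the cells of the other target. In the Rosa26 libraries of day 13, set beside them with no test, Atp6v1a ran from 1218 to 1328 CPM, below every Pik3c3 library. Pik3c3 ran there from 50.1 to 69.1 CPM, above every Pik3c3 library. The folds therefore do not measure the reduction from an unedited level. Messages with small insertions or deletions can keep their 3' reads, so these values do not measure the loss of protein.

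The cells of the 2 targets differed widely at day 13. Of 10435 genes tested, 1949 (18.7%) passed an adjusted p under 0.05 in edgeR's quasi-likelihood test, 891 (8.54%) higher and 1058 (10.1%) lower in Atp6v1a cells. Of these, 285 differed by more than 2-fold, 120 higher and 165 lower. Over all tested genes the median log2 fold change was 0.02. The CPM of the groups did not overlap in 440 of the 10435 genes with Atp6v1a cells higher and in 364 with them lower. Genes named below were chosen for called differences, a choice that favours groups without overlap. The p-values measure the spread between these pooled cultures. A fit with no protocol term called 725 genes.

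**Figure D1:**
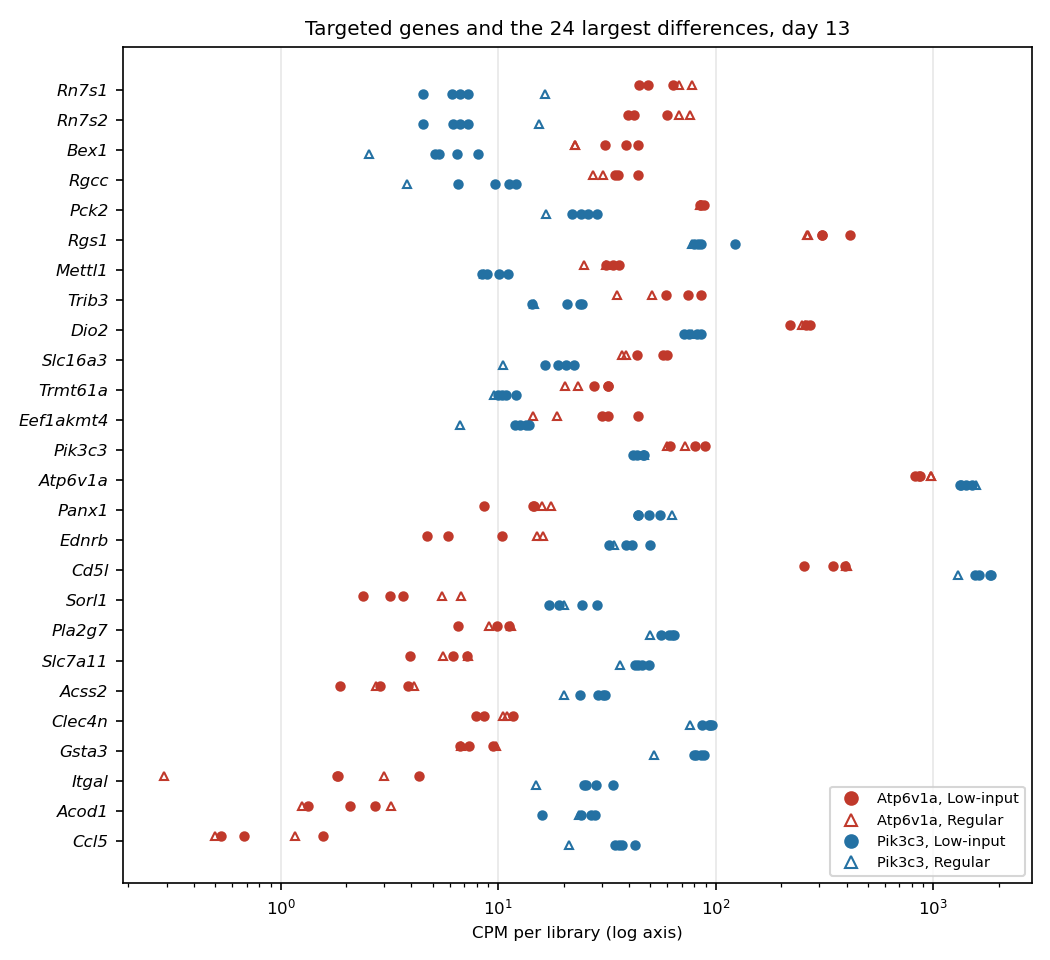
Level (CPM, log axis) in each of the 10 day 13 libraries for the 2 targeted genes and the 12 largest differences in each direction, with Atp6v1a cells in red, Pik3c3 cells in blue, filled circles for Low-input and open triangles for Regular libraries. In each of these genes the red and blue points do not overlap, from Rn7s1 at the top (log2 fold change 2.69) to Ccl5 at the bottom (-5.18). Apart from the targets they were picked for large differences among called genes with a mean of at least 20 CPM in the higher group. Over all 10435 tested genes, 440 did not overlap with Atp6v1a cells higher and 364 with them lower.

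Among called genes with a mean of at least 20 CPM in the higher group, unnamed models and pseudogenes left out, 12 in each direction were named. The 12 most strongly lower in Atp6v1a cells had varied roles, and no theme was tested over them. Ccl5, a chemokine for T cells and monocytes, stood at 1.57, 0.679, 0.534, 1.17 and 0.501 CPM in Atp6v1a libraries 1 to 5 and at 37.2, 21.1, 36.1, 34.3 and 42.6 CPM in Pik3c3 libraries 1 to 5. The highest Atp6v1a library was far under the lowest Pik3c3 library, and the log2 fold change was -5.18 ± 0.24 (adjusted p = 4.79e-10). Acod1, the enzyme that makes itaconate in activated macrophages, stood at 2.09, 2.72, 1.33, 3.22 and 1.25 CPM in Atp6v1a cells and at 15.9, 23.6, 24.1, 28.0 and 26.7 CPM in Pik3c3 cells. It differed by -3.54 ± 0.25 with no overlap (adjusted p = 4.31e-08). Clec4n, which encodes the fungal pattern receptor Dectin-2, stood at 8.63, 7.92, 11.7, 10.5 and 11.0 CPM against 86.7, 76.1, 94.0, 96.1 and 93.4 CPM. Its log2 fold change was -3.22 ± 0.13, the smallest p of all genes named here (adjusted p = 1.22e-10). Itgal, the alpha chain of the leukocyte integrin LFA-1, ran from 0.293 to 4.33 CPM in Atp6v1a cells and from 15.0 to 33.6 CPM in Pik3c3 cells (-3.41 ± 0.27).

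Cd5l, a protein that macrophages secrete and that binds lipids, stood at 256, 393, 347, 397 and 404 CPM in Atp6v1a cells and 1566, 1306, 1633, 1840.3 and 1823 CPM in Pik3c3 cells. All 5 Atp6v1a libraries were lower (-2.27 ± 0.13, adjusted p = 4.05e-09). Acss2, which makes acetyl-CoA from acetate, ran from 1.87 to 4.10 CPM against 20.1 to 31.0 CPM (-3.12 ± 0.20). Pla2g7, the secreted hydrolase of platelet-activating factor, ran from 6.56 to 11.5 CPM against 50.0 to 64.3 CPM (-2.67 ± 0.15). Sorl1, a sorting receptor between Golgi and endosomes, differed by -2.51 ± 0.23. Also lower were Gsta3, a glutathione S-transferase (-3.25 ± 0.15), Panx1, a membrane channel that releases ATP (-2.01 ± 0.13), and Ednrb, an endothelin receptor (-2.14 ± 0.23). Adjusted p-values of these 7 genes were at most 7.49e-06. None of the 7 overlapped between groups, which their choice as large called differences favours.

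Under the same rule, the 12 genes most strongly higher in Atp6v1a cells were of varied roles too. Pck2, the mitochondrial phosphoenolpyruvate carboxykinase, stood at 84.9, 85.7, 88.9, 84.6 and 85.6 CPM in Atp6v1a libraries 1 to 5 and at 21.9, 16.6, 28.4, 24.0 and 25.9 CPM in Pik3c3 libraries 1 to 5. All Atp6v1a libraries were higher, and they lay close together (log2 fold change 1.85 ± 0.12, adjusted p = 1.54e-08). Dio2, the deiodinase that makes active thyroid hormone, stood at 221, 272, 262, 249 and 257 CPM against 71.9, 78.0, 82.6, 85.5 and 75.1 CPM. It differed by 1.60 ± 0.09 with no overlap (adjusted p = 4.05e-09). Trib3, a pseudokinase gene that ATF4 switches on, ran from 35.3 to 85.5 CPM against 14.4 to 24.4 CPM (1.68 ± 0.15). Mettl1 and Trmt61a, which methylate tRNA, differed by 1.71 ± 0.14 and 1.35 ± 0.14. Eef1akmt4, a lysine methyltransferase that acts on an elongation factor, differed by 1.35 ± 0.17.

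Further genes of other roles were higher by more than 2-fold. Bex1 ran from 22.5 to 43.9 CPM in Atp6v1a cells and from 2.54 to 8.09 CPM in Pik3c3 cells (2.59 ± 0.18). Rgs1, which damps signalling by G protein-coupled receptors such as chemokine receptors, ran from 262 to 415 CPM against 77.7 to 123 CPM (1.79 ± 0.14). Rgcc, a regulator of the cell cycle, differed by 2.02 ± 0.18, and Slc16a3, the lactate exporter MCT4, by 1.45 ± 0.13. Rn7s1 and Rn7s2, which encode the RNA of the signal recognition particle, had the largest log2 fold changes in this direction under the naming rule, 2.69 ± 0.19 and 2.63 ± 0.19. They are near-identical copies, so the counting can divide reads between them and neither level is certain on its own. Rn7s1 ran from 44.4 to 78.3 CPM in Atp6v1a cells and from 4.53 to 16.4 CPM in Pik3c3 cells, where the Regular library was the highest. This RNA carries no long poly(A) tail, and how it entered polyA-primed libraries was not tested.

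Gene lists are described by counts over their tested members, beside the 18.7% of all genes called. List members that did not pass, and others named beyond the 4 smallest p-values of a list, were chosen for naming after their values were seen. NRF2 is a transcription factor that switches on glutathione and antioxidant genes. Of 16 tested NRF2 targets, 13 (81.2%) were lower and 0 higher in Atp6v1a cells, with a median log2 fold change of -0.84. Gclm, the regulatory subunit of the enzyme that starts glutathione synthesis, stood at 74.2, 85.7, 107, 98.3 and 97.2 CPM in Atp6v1a libraries and at 302, 262, 342, 347 and 321 CPM in Pik3c3 libraries. The groups were well apart (-1.83 ± 0.11, adjusted p = 9.01e-09). Slc7a11, which imports the cystine used for glutathione, stood at 3.92, 6.18, 7.21, 5.56 and 7.26 CPM against 49.6, 36.2, 44.2, 46.0 and 42.6 CPM. It differed by -2.90 ± 0.15 (adjusted p = 2.65e-09). Nqo1, a quinone reductase, ran from 0.585 to 2.35 CPM against 7.96 to 10.8 CPM (-2.67 ± 0.28), and Taldo1, of the pentose phosphate pathway, from 280.4 to 404 CPM against 567 to 791 CPM (-1.06 ± 0.08). The 3 members that did not pass were Txn1 (-0.29), Hmox1 (-0.21) and Nfe2l2, which encodes NRF2 itself (-0.17).

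NRF2 binds the antioxidant response element. Its core was searched as TGACNNNGC on both strands of 300-base promoter windows, 250 bases before to 50 after the gene's start, from RefSeq on GRCm38.p6. A match was present in 14.0% of the 27025 genes in the table and 17.2% of the 8066 tested genes found there. It was present in 7 of the 13 NRF2 targets found in the table and in 6 of the 11 of these that were called (Gclm, Srxn1, Txnrd1, Pgd, Prdx1 and G6pdx). The windows of Gclm (chr3:122245307-122245606, + strand) and Srxn1 (chr2:152105274-152105573, + strand), which encodes sulfiredoxin (-1.29), are shown because these 2 genes had the smallest p among the 6. Capitals mark the match, which in both lies on the opposite strand and so reads as the reverse complement.
Gclm: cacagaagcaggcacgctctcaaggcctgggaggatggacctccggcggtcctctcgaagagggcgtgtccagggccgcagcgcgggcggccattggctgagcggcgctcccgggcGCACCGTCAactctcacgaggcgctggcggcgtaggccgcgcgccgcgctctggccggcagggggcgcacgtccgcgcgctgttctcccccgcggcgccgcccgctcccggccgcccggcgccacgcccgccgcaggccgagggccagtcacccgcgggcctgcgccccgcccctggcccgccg
Srxn1: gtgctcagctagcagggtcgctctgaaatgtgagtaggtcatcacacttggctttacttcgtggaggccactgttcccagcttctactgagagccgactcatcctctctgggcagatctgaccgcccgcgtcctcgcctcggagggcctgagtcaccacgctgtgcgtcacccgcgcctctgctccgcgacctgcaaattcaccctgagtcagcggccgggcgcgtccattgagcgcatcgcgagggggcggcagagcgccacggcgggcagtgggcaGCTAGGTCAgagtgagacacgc

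Genes of lipid supply were lower in Atp6v1a cells in 3 related lists. Of 23 tested genes of sterol synthesis and uptake, 18 (78.3%) were lower and 0 higher, with a median of -0.73. Cyp51, which removes a methyl group from lanosterol, stood at 49.7, 51.3, 54.5, 60.6 and 61.1 CPM in Atp6v1a libraries and 124, 104, 110.4, 109.8 and 112 CPM in Pik3c3 libraries. The groups did not overlap (-1.11 ± 0.10, adjusted p = 8.28e-07). Sqle, a rate-limiting oxygenase, ran from 25.2 to 37.8 CPM against 49.4 to 65.6 CPM (-0.89 ± 0.11). Sc5d, a late desaturase, differed by -0.86 ± 0.09. In the Regular libraries alone 11 members passed. Of 11 tested genes of fatty acid synthesis, 8 (72.7%) were lower and 0 higher, with a median of -0.46, and 3 passed in the Regular libraries alone. Beside Acss2 these included Scd2, a desaturase (-1.62 ± 0.18), Me1, a source of NADPH (-1.11 ± 0.15, and -0.74 with adjusted p = 0.053 in the Regular libraries alone), and Acly, which makes cytosolic acetyl-CoA (-0.46 ± 0.10).

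LXR is a sterol-sensing nuclear receptor that switches on cholesterol export. Of its 11 tested targets, 9 (81.8%) were lower and 0 higher, with a median of -0.70. Scd2 and Srebf1 also stand in the fatty acid list. Apoe, the lipid carrier that macrophages secrete, stood at 404, 346, 470.4, 273 and 369 CPM in Atp6v1a libraries and at 1292, 726, 1444, 1287 and 1079 CPM in Pik3c3 libraries. Its lowest Pik3c3 library was the Regular one, which still lay above every Atp6v1a library (-1.59 ± 0.13, adjusted p = 2.18e-07). Mylip, which targets the LDL receptor for breakdown, differed by -0.89 ± 0.13, and Pltp, a phospholipid transfer protein, by -0.70 ± 0.09. The core of the sterol regulatory element, searched as TCACNCCAC on both strands of the same windows, was present in 1.44% of all genes and 1.38% of tested genes in the table. It was found in 1 of 16 sterol genes in the table, Hmgcs1, the cytosolic HMG-CoA synthase (-0.62), whose window (chr13:119690101-119690400, + strand) is shown as the single match, in capitals.
Hmgcs1: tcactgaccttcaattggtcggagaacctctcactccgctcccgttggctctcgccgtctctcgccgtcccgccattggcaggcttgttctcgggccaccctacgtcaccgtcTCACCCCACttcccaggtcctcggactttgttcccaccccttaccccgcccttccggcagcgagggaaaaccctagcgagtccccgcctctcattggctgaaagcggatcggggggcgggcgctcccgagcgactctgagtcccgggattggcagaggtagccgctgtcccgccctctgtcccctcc

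Macrophage identity genes were lower in Atp6v1a cells or did not pass. Of 23 tested, 14 (60.9%) were lower and 0 higher, with a median of -0.58. Mertk, a receptor for the uptake of dead cells, stood at 19.9, 27.6, 29.4, 31.0 and 29.5 CPM in Atp6v1a libraries and at 101, 105, 112, 108 and 79.1 CPM in Pik3c3 libraries. The difference was -1.99 ± 0.12 with no overlap (adjusted p = 9.6e-09). Aif1, an actin-binding protein, ran from 38.7 to 62.1 CPM against 80.7 to 126 CPM (-1.10 ± 0.11), and C1qb, of complement C1q, from 355 to 504 CPM against 597 to 786 CPM (-0.72 ± 0.09). Levels of Spi1 (-0.03), Cd68 (-0.03) and Cd14 (0.02) did not pass. The summed level of 14 lymphocyte markers was also lower in Atp6v1a cells, at 40.8 ± 7.05 CPM against 106 ± 24.1 CPM (exact permutation test, adjusted p = 0.0318), and most of it was Ighm (mean 36.7 against 95.1 CPM), the heavy chain of IgM. Cd79a, Cd79b and Ms4a1, which define B cells, had means of 0, 0.205 and 0.208 CPM in Atp6v1a cells and 1.02, 0.86 and 1.36 CPM in Pik3c3 cells. Cd4 had means of 2.28 and 6.62 CPM. Other members went the other way, with higher means in Atp6v1a cells. They were Cd3e (0.567 against 0.115 CPM), Cd3d (0.212 against 0.12 CPM), Ncr1 (0.303 against 0.121 CPM) and Nkg7 (0.0585 against 0 CPM). Of the 14 markers, 8 were under 1 CPM in all 10 libraries. The lymphocyte sum was 45.2 against 115 CPM in the Low-input and 34.15 against 70.03 CPM in the Regular libraries. The summed level of 12 mast cell or basophil markers was higher, at 11.0 ± 2.50 CPM against 4.36 ± 1.96 CPM (adjusted p = 0.0318). It was almost all Kit (10.7 against 4.00 CPM), while 8 of the 12 were at 0 in all 10 libraries. The sum was 11.5 against 3.94 CPM in the Low-input and 10.3 against 6.05 CPM in the Regular libraries. The summed neutrophil markers stood at 12.8 ± 2.97 against 16.7 ± 2.75 CPM (adjusted p = 0.19), and adjusted p was 0.292 to 0.873 for the sums of dendritic, stromal, erythroid and brain markers. The part of other cell types in these differences was not tested.

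Interferon-stimulated genes were lower in Atp6v1a cells to an extent that depended on the libraries used. Of 30 tested, 13 (43.3%) were lower and 0 higher, with a median of -0.64. Rsad2, the antiviral enzyme viperin, stood at 42.1, 55.0, 77.4, 113 and 43.6 CPM in Atp6v1a libraries and at 142, 167, 149, 141 and 159 CPM in Pik3c3 libraries. The Atp6v1a libraries were all lower but spread widely (-1.36 ± 0.20, adjusted p = 0.000125). Ifit1, which binds foreign RNA, ran from 10.3 to 23.5 CPM against 29.9 to 52.3 CPM (-1.30 ± 0.21). Bst2, which tethers virus particles, and Ifih1, the RNA sensor MDA5, overlapped between groups in CPM, with -0.57 ± 0.09 and -0.65 ± 0.12 on the log2 scale, and neither passed without the protocol term (adjusted p = 0.0993 and 0.362). In the Low-input libraries alone 22 members passed, in the Regular libraries alone 5, without replicate 4 of the Atp6v1a cells 22, without replicate 2 of the Pik3c3 cells 21, and with no low-count filter 23.

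Of 19 tested inflammatory genes, 7 were lower and 3 higher (52.6% together, median -0.12), so the list had no common direction. Beside Acod1, the cytokine gene Tnf ran from 6.73 to 19.5 CPM in Atp6v1a cells and from 18.1 to 36.1 CPM in Pik3c3 cells (-0.86 ± 0.16), and Icam1, an adhesion molecule, differed by -0.77 ± 0.15. Cd40, a receptor for T cell help, was higher (1.09 ± 0.23), but by only 0.22 with adjusted p = 0.859 in the Regular libraries alone. Of 12 tested chemokines, 5 were lower and 1 was higher (50.0%, median -0.15). Beside Ccl5, Cxcl10, which attracts T cells, differed by -1.39 ± 0.29, and 1 Atp6v1a library, replicate 3, lay at 9.88 CPM, within the Pik3c3 range. Ccl3 differed by -0.64 ± 0.11. Pf4, platelet factor 4, was the higher one (0.71 ± 0.11). Without the protocol term Ccl3 (adjusted p = 0.0643) and Pf4 (adjusted p = 0.0745) did not pass.

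Genes of lysosomal proteins were lower in Atp6v1a cells by modest amounts. Of 36 tested lysosomal hydrolases, 20 (55.6%) were lower and 0 higher, with a median of -0.34. Pla2g15, the lysosomal phospholipase, stood at 105, 132, 134, 106 and 125 CPM in Atp6v1a libraries and at 220.1, 176, 224, 222 and 223 CPM in Pik3c3 libraries. The groups did not overlap (-0.86 ± 0.09, adjusted p = 6.32e-06). Galns, a sulfatase of keratan sulfate breakdown, differed by -0.94 ± 0.13 and the protease cathepsin C, Ctsc, by -0.72 ± 0.10. Ctsd, cathepsin D, was far more abundant, at 4944 to 6974 CPM against 6603 to 9899 CPM (-0.60 ± 0.08), and its Regular Pik3c3 library lay within the Atp6v1a range. Without the protocol term 11 hydrolases passed.

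Of 28 tested genes of the lysosomal membrane and of sorting to it, 11 (39.3%) were lower and 0 higher, with a median of -0.31. Without replicate 4 of the Pik3c3 cells 7 passed, and in the Regular libraries alone 6. Sort1, the sorting receptor sortilin, ran from 8.37 to 20.7 CPM in Atp6v1a cells and from 24.6 to 36.0 CPM in Pik3c3 cells (-1.39 ± 0.16). Slc11a1, the phagosomal metal transporter NRAMP1, ran from 57.3 to 104 CPM against 116 to 218 CPM (-1.14 ± 0.11). Gm2a, an activator of ganglioside breakdown, differed by -0.58 ± 0.10, and Psap, the precursor of the saposins, by -0.55 ± 0.11, both with overlap between groups. Psap differed by -0.14 in the Regular libraries alone (adjusted p = 0.0798).

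Of 13 tested genes of iron handling, 6 were lower and 1 was higher (53.8%, median -0.21). Tfrc, the transferrin receptor that brings iron in, stood at 304, 386, 367, 313 and 296 CPM in Atp6v1a libraries and at 873, 659, 933, 940.2 and 919 CPM in Pik3c3 libraries. All Atp6v1a libraries were lower (-1.38 ± 0.09, adjusted p = 1.5e-08). Slc40a1, the exporter ferroportin, stood at 26.7, 33.7, 44.6, 56.7 and 93.2 CPM against 146, 121, 139.9, 186 and 194 CPM. It was also lower (-1.89 ± 0.24), by -2.32 in the Low-input and -0.78 in the Regular libraries. Ncoa4, the receptor that carries ferritin to lysosomes, differed by -0.88 ± 0.10, and Blvrb, a reductase of heme breakdown, by -0.80 ± 0.11. Importer, exporter and ferritin receptor were thus all lower in Atp6v1a than in Pik3c3 cells, but Rosa26 levels of day 13, with no test, were not alike. Tfrc stood there at 256 to 393 CPM, near the Atp6v1a cells. Slc40a1 stood there at 129 to 281 CPM, above all Atp6v1a libraries. The higher member was Steap3, a ferrireductase (0.55 ± 0.19), a call that was lost without any one of replicates 2, 3, 4 or 5 of the Atp6v1a cells or 2, 3 or 4 of the Pik3c3 cells, in the Low-input libraries alone and without the protocol term.

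In the integrated stress response the factor ATF4 switches on genes of amino acid supply. Of 28 tested members, 19 were higher and 1 was lower in Atp6v1a cells (71.4%, median 0.56). Atf4 itself stood at 866, 1043, 1074, 983 and 832 CPM in Atp6v1a libraries and at 395, 421, 475, 422 and 332 CPM in Pik3c3 libraries. Every Atp6v1a library was higher (1.17 ± 0.10, adjusted p = 8.23e-07). With Pck2 and Trib3 above, Chac1, which degrades glutathione (2.29), Slc7a5, a transporter of large amino acids (1.34), and Asns, asparagine synthetase (1.18), were among the higher members. The lower member was Slc7a11, which stands in the NRF2 list too and shared that list's direction. Without the protocol term 12 members passed as higher.

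ATF4 binds amino acid response elements. Their core was searched as TGATGNAA on both strands of the same windows and was present in 4.51% of all genes and 2.78% of tested genes in the table. It was present in 9 of 25 integrated stress response genes found there and in 7 of the 17 called higher (Pck2, Trib3, Chac1, Asns, Gars, Aars and Nupr1). The windows of Pck2 (chr14:55540016-55540315, + strand) and Trib3 (chr2:152344011-152344310, - strand) are shown because these 2 genes had the smallest p among the 7. Both hold the same letters on the opposite strand, TTACATCA, in capitals.
Pck2: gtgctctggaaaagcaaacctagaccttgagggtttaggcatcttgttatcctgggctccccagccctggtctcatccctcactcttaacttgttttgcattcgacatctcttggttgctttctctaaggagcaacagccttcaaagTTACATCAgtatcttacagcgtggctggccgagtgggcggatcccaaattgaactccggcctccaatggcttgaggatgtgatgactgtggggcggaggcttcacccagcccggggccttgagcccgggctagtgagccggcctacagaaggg
Trib3: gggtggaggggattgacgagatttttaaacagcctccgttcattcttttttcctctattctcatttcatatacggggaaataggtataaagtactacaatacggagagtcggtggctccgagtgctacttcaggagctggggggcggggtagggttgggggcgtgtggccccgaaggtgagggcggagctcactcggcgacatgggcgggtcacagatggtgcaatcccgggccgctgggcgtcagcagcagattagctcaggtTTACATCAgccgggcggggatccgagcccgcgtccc

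Of 18 tested genes of the unfolded protein response, which raises the folding capacity of the endoplasmic reticulum, 12 (66.7%) were higher and 0 lower, with a median of 0.54. Hspa5, the chaperone BiP, stood at 1481, 1613, 1514, 1818 and 1652 CPM in Atp6v1a libraries and at 832, 856, 840.01, 898 and 778 CPM in Pik3c3 libraries. The groups did not overlap (0.84 ± 0.08, adjusted p = 2.9e-06). Pdia6, a disulfide isomerase, differed by 0.68 ± 0.09. Calr, the chaperone calreticulin (0.87 ± 0.08), and Manf, a secreted stress protein (0.81 ± 0.13), overlapped in CPM over all libraries but not within either protocol. Without the protocol term 4 members passed, and Manf did not (adjusted p = 0.128).

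Cell cycle genes were higher in Atp6v1a cells. Of 30 tested, 21 (70.0%) were higher and 0 lower, with a median of 0.77, against 13 higher without the protocol term. Birc5, the mitotic regulator survivin, stood at 94.4, 138, 144, 124 and 116 CPM in Atp6v1a libraries and at 62.1, 58.9, 70.5, 59.5 and 66.4 CPM in Pik3c3 libraries. The groups did not overlap (0.89 ± 0.11, adjusted p = 1.99e-05). Ccna2, cyclin A2, ran from 20.7 to 34.4 CPM against 8.58 to 13.7 CPM (1.11 ± 0.15), and Stmn1, which destabilises microtubules, from 197 to 242 CPM against 117 to 140.5 CPM (0.68 ± 0.10). Tk1, thymidine kinase, was low in both groups, at 8.26 to 12.6 CPM against 3.50 to 5.35 CPM (1.33 ± 0.18, and 1.20 with adjusted p = 0.0845 in the Regular libraries alone). The cyclin D genes of the list, Ccnd1 (-0.19), Ccnd2 (-0.32) and Ccnd3 (-0.28), did not pass. Of 21 tested CDK inhibitors and p53 targets, 7 were lower and 2 higher (42.9%, median -0.15). The higher count was 1 without replicate 2 of the Pik3c3 cells and in the Low-input libraries alone, and the Regular libraries alone gave 3 lower and 4 higher.

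Of 23 tested genes of hypoxia and glycolysis, 10 were higher and 1 was lower (47.8%, median 0.26). Beside Slc16a3 these included Ero1a, an oxidase of the endoplasmic reticulum (0.70 ± 0.12), and the glycolytic genes Pgam1 (0.51 ± 0.08) and Ldha (0.50 ± 0.08). Pgam1 ran from 747 to 1000.1 CPM in Atp6v1a cells and from 490.2 to 643 CPM in Pik3c3 cells. Ldha overlapped in CPM and did not pass without the protocol term (0.37, adjusted p = 0.322). The lower member was Pfkfb3, which drives an activator of glycolysis (-0.48 ± 0.10).

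**Figure D2:**
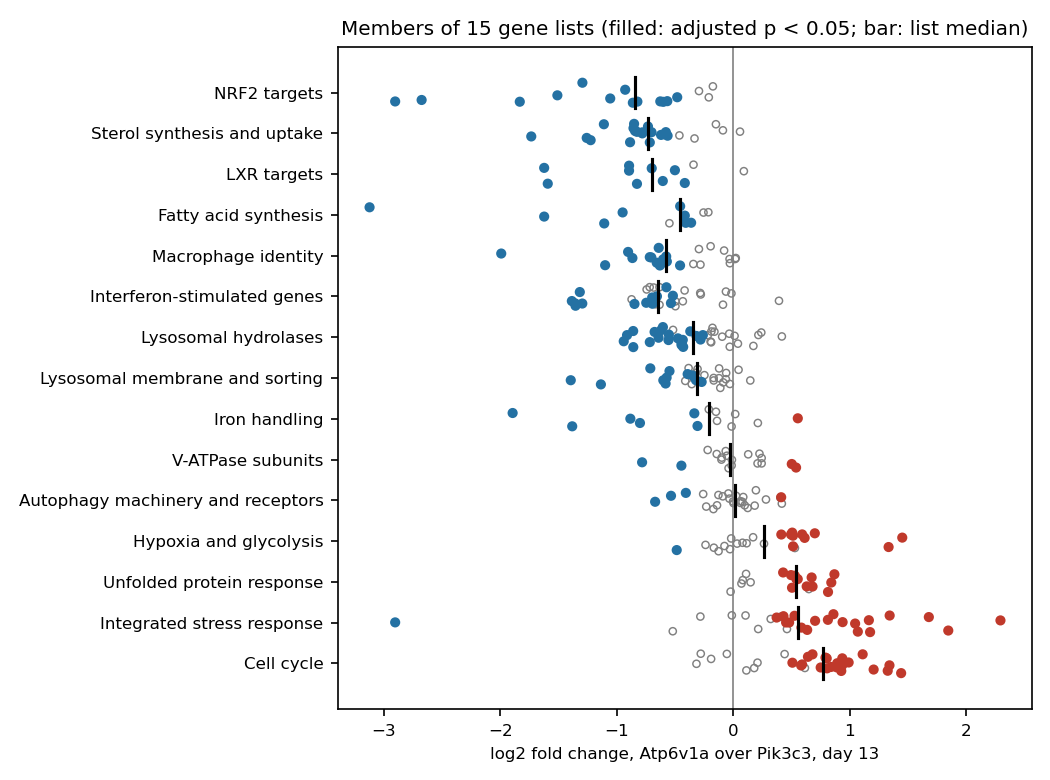
Log2 fold change (Atp6v1a over Pik3c3, day 13) of each tested member of 15 gene lists, with filled points for members at an adjusted p under 0.05, blue when lower and red when higher in Atp6v1a cells, and a black bar at the list's median. Medians run from -0.84 in the NRF2 targets to 0.77 in the cell cycle list, while the V-ATPase and autophagy lists centre near 0.

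The complexes of the edited genes themselves differed little beyond the targets. Of 18 tested V-ATPase subunits, 2 were lower and 2 higher (22.2%, median -0.03), a share near the 18.7% of all genes. The lower ones were Atp6v1a and Tcirg1, a membrane subunit enriched in osteoclasts (-0.44 ± 0.11, and -0.24 with adjusted p = 0.31 in the Regular libraries alone). The higher ones were Atp6v1c1, a stalk subunit (0.54 ± 0.09, adjusted p = 0.151 without the protocol term), and Atp6v0d2, a subunit isoform of the membrane sector (0.50 ± 0.14). Atp6v0d2 stood at 478, 323, 320.4, 297 and 299 CPM in Atp6v1a libraries and at 247, 269.9, 222, 211 and 218 CPM in Pik3c3 libraries, with replicate 1 of the Atp6v1a cells far above the rest. It did not pass without any one of Pik3c3 replicates 3, 4 or 5 (adjusted p = 0.0519, 0.0531 and 0.0522) and differed by 0.04 in the Regular libraries alone. The remaining 14 subunits did not pass, and their log2 fold changes lay between -0.22 (Atp6ap1) and 0.24 (Atp6v0e).

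Of 20 tested genes of the class III PI3-kinase complexes and of proteins that bind or turn over PI3P, 1 (5.00%) passed, Pik3c3 itself. Its partners Pik3r4 (-0.24), Becn1 (-0.19), Atg14 (-0.12) and Uvrag (-0.15), named for their place in the complexes, did not pass. Of 26 tested autophagy genes, 3 were lower and 1 was higher (15.4%, median 0.01). The kinase genes Ulk1 and Ulk2, which start autophagy, differed by -0.67 ± 0.16 and -0.53 ± 0.10, Gabarapl1, a member of the LC3 family, by -0.41 ± 0.10, and the receptor gene Tax1bp1 by 0.41 ± 0.09. In the Regular libraries alone Ulk1 (-0.22, adjusted p = 0.379), Ulk2 (adjusted p = 0.0796) and Gabarapl1 (adjusted p = 0.143) did not pass, and without the protocol term Ulk1 (adjusted p = 0.506), Ulk2 (adjusted p = 0.118) and Tax1bp1 (adjusted p = 0.272) did not. The receptor Sqstm1 (-0.23) and Map1lc3b (-0.09) did not pass. Of 26 tested genes of endosomes and retromer, 1 was higher and 1 lower (7.69%). The lower count was 0 without any one of replicates 3, 4 or 5 of the Atp6v1a cells or 1 or 4 of the Pik3c3 cells and in the Low-input libraries alone, and the Regular libraries alone gave 0 higher and 3 lower. Of 20 tested MiT/TFE factors and nutrient sensors, 3 were higher and 1 was lower (20.0%). The higher ones were Tsc1, a brake on mTORC1 (0.64 ± 0.14), and the Rag GTPase genes Rraga (0.30 ± 0.09) and Rragd (0.28 ± 0.09), and the lower one was the transcription factor gene Tfe3 (-0.47 ± 0.13). Rraga, Rragd and Tfe3 lost their calls under several other settings, among them the fit of all day 13 libraries without Rosa26 (adjusted p = 0.0702, 0.143 and 0.0874). Apart from the targets, the autophagy, endosome and nutrient-sensing genes were called at about the background share or below it.

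Other lists are given by count. Without the protocol term 7 macrophage identity genes, 6 interferon-stimulated genes, 4 fatty acid genes, 5 genes of the lysosomal membrane, 0 genes of MHC class I and 0 mitochondrially encoded messages passed as lower. Of 25 tested lipid-associated macrophage genes, 6 were higher and 8 lower (56.0%, median -0.13), with 5 lower without replicate 2 of the Atp6v1a cells. Of 15 tested genes of MHC class I presentation, 6 were lower (40.0%), with 2 without replicate 2 of the Atp6v1a cells or without replicate 4 of the Pik3c3 cells, and 3 without replicate 5 of the Pik3c3 cells. Of 6 of MHC class II, 2 were lower, with 4 under no low-count filter. Of 16 immediate early genes, 2 were higher and 4 lower, with 2 lower without replicate 2 of the Pik3c3 cells and 1 higher without replicate 3 of the Atp6v1a cells. Of 8 genes of fusion and osteoclasts, 2 were higher and 1 was lower. There the higher count was 1 without replicate 2 of the Atp6v1a cells or any one of replicates 2 to 5 of the Pik3c3 cells, and the lower count was 0 without any one of replicates 2, 3 or 4 of the Atp6v1a cells or 3, 4 or 5 of the Pik3c3 cells. Of 34 nuclear genes of the respiratory chain, 3 were higher and 1 was lower (11.8%). Their higher count was 1 without any one of replicates 1 or 2 of the Atp6v1a cells or 1, 3 or 4 of the Pik3c3 cells, and the lower count was 0 without any one library other than replicate 1 of the Atp6v1a cells and replicate 2 of the Pik3c3 cells and with DESeq2 size factors. The Regular libraries alone gave 0 higher and 8 lower. Of 12 mitochondrially encoded messages, 8 were lower (66.7%, median -0.42), but 3 passed in the Low-input libraries alone, 3 without replicate 2 of the Atp6v1a cells, 4 without their replicate 3, and 3 without replicate 2 of the Pik3c3 cells.

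At day 4 the cells of the 2 targets were much more alike in the number of calls. All 10 day 4 libraries were Regular, so protocol could not enter. Of 10379 genes tested, 23 (0.222%) passed, 4 higher and 19 lower in Atp6v1a cells, and 954 had an unadjusted p under 0.05. DESeq2 called 51. Of the 23, 13 also passed at day 13. The targeted genes differed as at day 13, by -0.87 for Atp6v1a (adjusted p = 4.75e-08) and 0.79 for Pik3c3 (adjusted p = 0.0033), and the differences did not change between days past the threshold (adjusted p = 0.56 and 0.668). Of the 86 genes named here under the naming rule at day 13, 81 were tested at day 4. Gclm (-0.58, adjusted p = 0.00159) and Atp6v0d2 (0.68, adjusted p = 0.0033) passed there beside the targets. Lyz2, given above as a macrophage marker and not among the 81, passed at day 4 too (-0.49, adjusted p = 0.00765).

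The change between days was tested itself, as the day 13 difference minus the day 4 difference, in a fit of the 20 libraries. Of 11029 genes, 1037 (9.4%) passed, 511 upward and 526 downward. Among the 86 genes named here, 70 passed, a share that the choice of these genes for their day 13 difference raises, since that difference is a part of the contrast. Ccl5 was at 0.867 to 2.25 CPM in Atp6v1a cells and 0.587 to 4.73 CPM in Pik3c3 cells at day 4, so its day 13 gap came with high levels in day 13 Pik3c3 cells (-4.55 ± 0.61, adjusted p = 1.12e-05). Mertk was at 44.5 to 54.3 and 46.5 to 62.0 CPM at day 4, and its difference moved by -1.80 ± 0.15 (adjusted p = 5.83e-09). Pck2 was at 28.0 to 36.0 and 26.9 to 35.2 CPM at day 4, and its difference moved by 1.83 ± 0.15 (adjusted p = 5.83e-09). By list, the difference moved upward in 16 of 28 integrated stress response genes (1 downward), 20 of 30 cell cycle genes and 7 of 18 unfolded protein response genes. Downward moves were in 11 of 23 sterol genes, 9 of 16 NRF2 targets, 7 of 11 LXR targets, 12 of 36 lysosomal hydrolases, 8 of 23 macrophage identity genes and 2 of 30 interferon-stimulated genes. Mixed lists included the lipid-associated macrophage genes (4 upward, 7 downward) and the inflammatory genes (4 upward, 2 downward). These counts are out of members tested at day 13, whose day 13 difference is a part of the contrast. Since the day 13 libraries are mostly Low-input and the day 4 libraries all Regular, protocol enters this test as a term, and in the Regular libraries alone 292 genes passed.

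**Figure D3:**
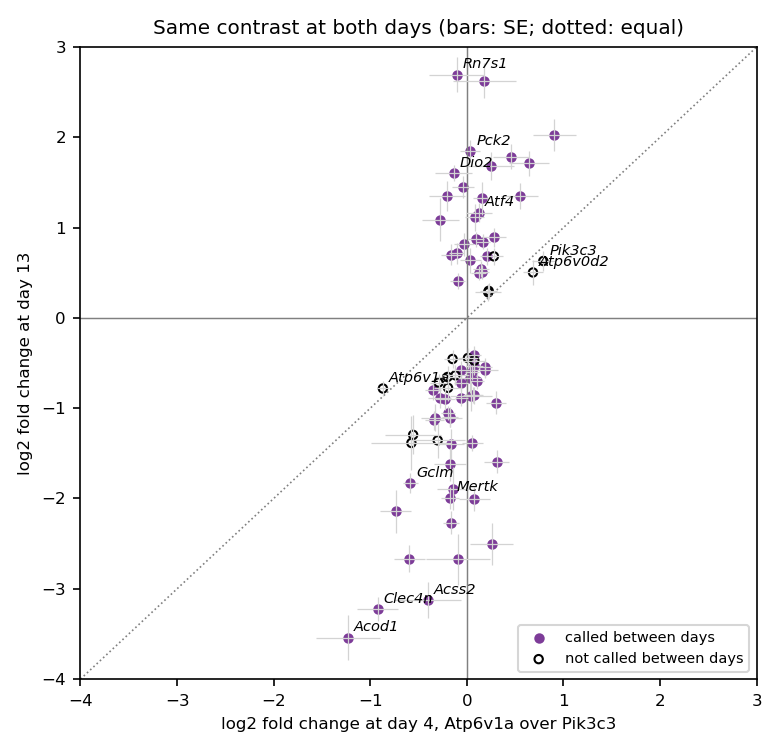
Log2 fold change (Atp6v1a over Pik3c3) at day 4 (horizontal) and day 13 (vertical) with SE bars for the 81 named genes tested at both days, filled where the change between days passed. Most points stand near 0 at day 4 and spread at day 13, while Atp6v1a (-0.87 and -0.78) and Pik3c3 (0.79 and 0.63) lie near the dotted line of equal differences.

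The called genes were chosen in a fit of all 10 libraries, so their direction within each protocol is given as a description and is no independent check. Of the 1949 genes called, 1948 had the same direction in the Low-input libraries alone (3 against 4), where 1442 also passed. In the Regular libraries alone (2 against 1), 1887 of the 1941 tested had the same direction and 860 passed. The 86 named genes, chosen from those calls, all had the same sign in both protocols. Sizes were less alike than signs: Bex1 differed by 2.52 in Low-input and 3.03 in Regular libraries, Rn7s1 by 3.00 and 2.04, Ednrb by -2.61 and -1.23, and Nqo1 by -2.40 and -3.59.

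**Figure D4:**
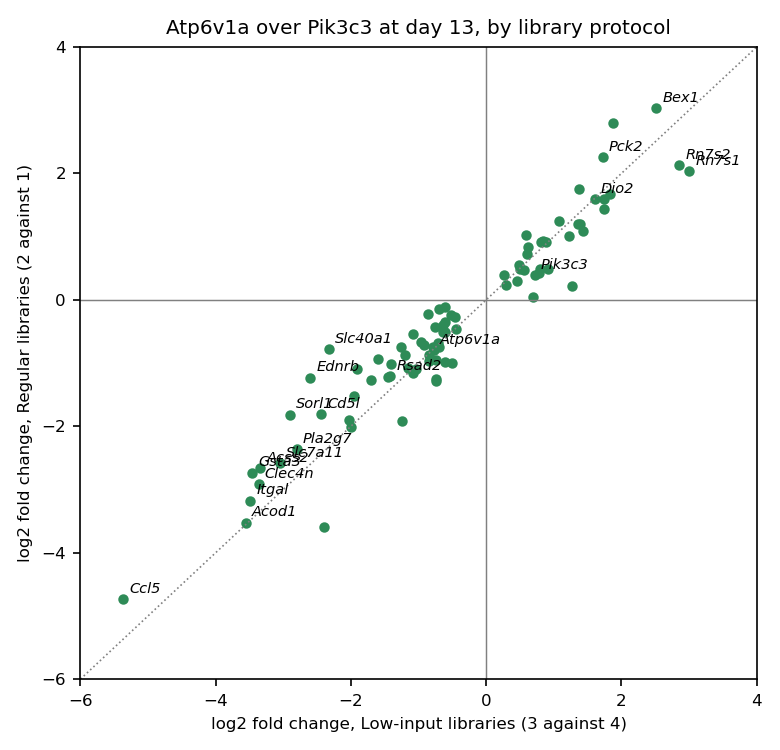
Log2 fold change (Atp6v1a over Pik3c3, day 13) of the 86 named genes in the Low-input libraries (3 against 4, horizontal) and in the Regular libraries (2 against 1, vertical), with a dotted line of equal values. All 86 points have the same sign on both axes, from Ccl5 (-5.37 and -4.74) to Bex1 (2.52 and 3.03).

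A direct comparison does not say which of the 2 groups moved, so the levels in the 5 Rosa26 libraries of day 13 (4 Regular, 1 Low-input) are set beside them, with no test. For Ccl5 the Rosa26 libraries stood at 0.746, 0.265, 0, 1.37 and 1.57 CPM, in the range of the Atp6v1a cells. Tfrc (256 to 393 CPM), Gclm (84.6 to 109.5 CPM) and Panx1 (14.9 to 18.2 CPM) also lay near the Atp6v1a levels and under the Pik3c3 levels. For Mertk the Rosa26 libraries stood at 83.1, 78.1, 78.7, 64.9 and 55.4 CPM, above all Atp6v1a libraries. Slc40a1 (129 to 281 CPM) and Sort1 (23.3 to 30.7 CPM) were likewise above all Atp6v1a libraries. Pck2 in Rosa26 libraries stood at 28.3, 21.5, 26.0, 23.7 and 31.6 CPM, near the Pik3c3 cells, and Atf4 (186 to 270.3 CPM) and Dio2 (16.8 to 24.2 CPM) were below both groups. Of the sterol genes lower in Atp6v1a cells, Cyp51 (33.2 to 40.3 CPM) and Sc5d (36.5 to 45.3 CPM) were in Rosa26 libraries below both groups. Sqle (20.5 to 27.5 CPM) was there below all Pik3c3 libraries and overlapped the Atp6v1a range. Genes lower in Atp6v1a cells thus include genes with Rosa26 levels near the Atp6v1a cells, nearer the Pik3c3 cells, and below both groups.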

How the data were processed

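The authors deposited a table of estimated counts per gene for all libraries, made with Salmon on GRCm39 from 75 bp single-end 3' tag reads whose duplicates were removed by molecular identifier, per the labels' protocols and the submitters' processing notes, which name no Salmon version. A deposited gene table gave symbols. Estimated counts (31.2% of values above 0 not whole) were rounded. Columns were matched to samples by library name.

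Differences were tested in edgeR 4.0.16 (R 4.3.3), with DESeq2 1.42.0 as an alternative: TMM scaling, filterByExpr, quasi-likelihood F test, two-sided, a protocol term at day 13, Benjamini-Hochberg over all tested genes, called at 0.05. SE is the absolute log2 fold change over the square root of F. The day 13 fit was tested on simulated data (10435 genes). It called 93% of genes changed by 2-fold and 100% of those changed by 4-fold, and 10 of its 203 calls were false. The simulation changed 200 genes, while 1949 were called in the data. It gave every gene the same spread and set no library apart, so these rates need not hold for the data. No libraries agreed within sampling noise (chi-square per degree of freedom 1.88 to 72.2 over 40 pairs).

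Genes named are both targets, the 12 largest changes in each direction among called genes with a mean of at least 20 CPM in the higher group, leaving out unnamed models and pseudogenes, and up to 4 called members of a list by smallest p; some of these are not reported here. Members, lists and rules were chosen with earlier results of these data known. Reference sequences were of GRCm38.p6, another build, so no other coordinates are given.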

Additional observations from a re-analysis of the deposited data

Results flagged for a closer look

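The difference between Atp6v1a and Pik3c3 cells itself differed between day 13 and day 4 in 70 of the 86 named genes (adjusted p under 0.05, edgeR's quasi-likelihood test of the day 13 minus day 4 difference, log2 scale). These genes were named for their day 13 difference, a part of that contrast, so the share that passed is no evidence of its own about the days. It moved downward, toward lower levels in Atp6v1a cells at day 13, in 42 of them. The widest downward moves were in Ccl5 (-4.55), Slc7a11 (-3.12), Itgal (-2.81), Sorl1 (-2.74), Acss2 (-2.70), Gsta3 (-2.62) and Nqo1 (-2.56). Next came Acod1 (-2.29), Clec4n (-2.28), Cd5l (-2.08), Panx1 (-2.06) and Pla2g7 (-2.05). Lesser moves were those of Apoe (-1.88), Mertk (-1.80), Slc40a1 (-1.72), Scd2 (-1.43), Tfrc (-1.42), Ednrb (-1.37), Gclm (-1.23), Galns (-1.22) and Sort1 (-1.21). Smaller again were Cyp51 (-0.92), Pla2g15 (-0.91), Aif1 (-0.90) and Sc5d (-0.90). Then followed Tnf (-0.89), Taldo1 (-0.84), Ncoa4 (-0.81), Pltp (-0.78), Slc11a1 (-0.78), Me1 (-0.76), Bst2 (-0.74) and Psap (-0.71). The narrowest were in Ulk1 (-0.68), Mylip (-0.65), C1qb (-0.64), Ctsd (-0.64), Ulk2 (-0.59), Sqle (-0.58), Gm2a (-0.50), Gabarapl1 (-0.46) and Blvrb (-0.43).

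The difference moved upward, toward higher levels in Atp6v1a cells, in 28. The widest were in Bex1 (2.87), Rn7s1 (2.81) and Rn7s2 (2.47). Lesser upward moves were those of Pck2 (1.83), Dio2 (1.77), Eef1akmt4 (1.58), Slc16a3 (1.51), Trib3 (1.46), Cd40 (1.39) and Rgs1 (1.35). Smaller were Tk1 (1.20), Rgcc (1.14), Mettl1 (1.09), Atf4 (1.06) and Ccna2 (1.05). They were followed by Ero1a (0.88), Manf (0.87), Pf4 (0.84), Trmt61a (0.82) and Calr (0.79). The narrowest upward moves were in Hspa5 (0.70), Birc5 (0.63), Tsc1 (0.62), Tax1bp1 (0.53), Stmn1 (0.49), Atp6v1c1 (0.41), Ldha (0.39) and Pgam1 (0.37). Day 4 libraries were all Regular and 7 of the 10 day 13 libraries Low-input, so these moves rest on the protocol term, and in the Regular libraries alone 292 of all genes passed in place of 1037.

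Of 172 groups of 5 libraries, each a named gene in the libraries of 1 target at day 13, 24 held a library that stood apart by Dixon's test (critical value 0.71 for 5 values). Chance gives about 1 in 20. In 18 of them it was replicate 2 of the Pik3c3 cells, the only Regular library of its group. Its levels in CPM were Gsta3 (51.9), Tfrc (659), Rn7s1 (16.4), Rn7s2 (15.4), Taldo1 (567), Calr (429), Aif1 (126), Pla2g15 (176) and Eef1akmt4 (6.69). It also stood apart for Blvrb (176), Ctsd (6603), Pdia6 (176), Pgam1 (490.2), Atp6v1c1 (322), Ldha (489.9), Bst2 (185), Psap (7915) and Tax1bp1 (308). The part of protocol in these was not tested apart from the protocol term of the fits. The other 6, also in CPM, were Pck2 in Atp6v1a replicate 3 (88.9), Rgs1 in Pik3c3 replicate 1 (123), Sqle in Atp6v1a replicate 1 (25.2), Stmn1 in Pik3c3 replicate 4 (117), Cxcl10 in Atp6v1a replicate 3 (9.88) and Atp6v0d2 in Atp6v1a replicate 1 (478).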

How the results depend on the processing

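At day 13 the 1949 calls came to between 1389 (without replicate 2 of the Atp6v1a cells) and 2227 (without their replicate 1) when each library was left out, and to 1609 to 2221 under the other settings that keep protocol in view. Only a fit with no protocol term moved the count past 1.5 times, to 725 (291 higher, 434 lower). The share of calls that were higher ran from 40.1% to 50.3%, and no scaling shifted the median of all genes by over 0.1. Leaving out both libraries numbered 1, chosen after seeing the data, gave 2261. At day 4 the 23 calls became 51 with DESeq2, 145 with no low-count filter, and 11 to 65 with each library left out: 65 without replicate 1 of the Pik3c3 cells, 11 without their replicate 2, 15 without their replicate 4, and 14, 15 and 12 without replicates 1, 2 and 3 of the Atp6v1a cells. The day difference gave 292 in the Regular libraries alone and 782 to 1189 with each day 13 library left out. The difference in Pik3c3 itself was 0.39 in the Regular libraries alone, no longer past the threshold. The causes were not tested. Over the 114 genes that the naming rule gave beside the targets and all settings, 2345 of 2502 values kept their direction and call, 157 lost the call and 0 reversed.

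Replicate numbers are shared between targets. Same-numbered libraries correlated in their deviations at 0.0821 to 0.249 at day 13 and -0.126 to 0.173 at day 4, so the numbers were not shown to pair the samples. Of the 5 Atp6v1a libraries, 4 at day 13 and 2 at day 4 correlated best with the Pik3c3 library of their own number. Replicate 1 of the Atp6v1a cells at day 13 did not, at 0.137 with its own number and 0.629 with a Pik3c3 library of another number. A replicate block gave 2131 calls at day 13 (989 higher, 1142 lower), 33 at day 4 and 1210 between days. At day 4 the block also called Ednrb (-0.78, adjusted p = 0.00418) and Rgs1 (0.47, adjusted p = 0.0211), which are named at day 13.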

Other observations

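Among the 23 genes called at day 4, several chosen here after their values were seen did not keep their difference. Hgsnat, which encodes the lysosomal acetyltransferase of heparan sulfate breakdown, was lower in Atp6v1a cells at day 4 (log2 fold change -0.59, adjusted p = 0.00194) and higher at day 13 (0.49, adjusted p = 0.00697), a change of 1.10 ± 0.14 (edgeR's quasi-likelihood test, adjusted p = 7.06e-06). Its CPM overlapped between groups at day 13. Saa3, an acute-phase gene of macrophages, was lower at day 4 (-2.18, adjusted p = 0.00341) and did not pass at day 13 (-0.12, adjusted p = 0.739). Clec4e, which encodes the receptor Mincle, was lower at day 4 (-0.92, adjusted p = 0.0131) and did not pass at day 13 (0.37, adjusted p = 0.138). Others were lower at both days. Marco, a scavenger receptor, differed by -1.62 and -1.38, and Ms4a6d by -0.46 and -1.41. Lyz1 (-0.52 and -0.51) and Lyz2 (-0.49 and -0.46) encode near-identical lysozymes, so the level of each is uncertain. F13a1, coagulation factor XIII A, was lower at day 4 (-1.74) and was not tested at day 13.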
